A study of Mus musculus with 3 samples.

Results

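The collagen and laminin chains were taken as every gene whose whole symbol is Col, digits, a and digits, or Lama, Lamb or Lamc and a digit. The rule gave 55 genes, 44 collagen and 11 laminin chains, of 26124 genes in the count tables. They are described in single-cell RNA from the testis of 1 adult Tsc22d3 knockout mouse of the goGermline line, across 6 cell classes gated on other genes. The same 55 genes were also summed in 2 libraries from the cauda epididymis, where sperm are stored. One came from a Tsc22d3 knockout of the same line, labelled as epididymal cells. The other came from a chimera of knockout host and mouse induced pluripotent stem cells (iPSCs), labelled Pax7-nGFP iPS x goGermline and as spermatids and spermatozoa. Both were taken by aspiration through the skin. All 3 hosts carry the Tsc22d3 knockout, which leaves the testis without its own sperm production, and no testis with an intact gene was included. Each group is 1 library, so nothing measures the spread between animals, no test of the classes or libraries was run, and every interval covers counting error only.

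Collagens are trimers of alpha chains. Fibrillar collagens form the cables of connective tissue, collagen IV forms the net of basement membranes, and collagen VI forms fine beaded filaments next to cells. Laminins are cross-shaped trimers of 1 alpha, 1 beta and 1 gamma chain that bind cell receptors and the collagen IV net. In the testis the wall of the seminiferous tubule is a basement membrane that Sertoli cells and the surrounding smooth muscle-like myoid cells share, while vessels between the tubules have basement membranes of their own.

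Levels are given as CPM, the unique molecular identifiers (UMIs) of a gene per 1000000 UMIs of the class. Counting at the 3′ end gives 1 count per molecule whatever its length, but capture differs between genes, so each chain is compared between classes and a ratio of 2 chains is also compared only between classes. The same holds for the share of a chain in the UMIs of its family, which does not rank the chains within a class. In the testis, 18108 barcodes carried 134795047 UMIs, a median of 4787.5 each. Of these barcodes 4446 failed the filter on UMIs, genes and mitochondrial share, with a median of 77.1% mitochondrial UMIs, and 13662 passed. The myoid gate, built on contractile genes, takes smooth muscle of the tubule wall and of vessels alike. The classes held 3283 fibroblast, 1937 myoid, 181 pericyte, 149 endothelial, 781 Sertoli and 2252 Leydig barcodes, 8583 in all. Some had passed a further gate as well: 68 of the 181 pericyte and 1319 of the 1937 myoid barcodes passed their own gate alone. Class levels and ratios below are those of the whole classes, and levels by gate are given with the gate overlap. A further 2406 barcodes passed a gate for macrophages, which served as the class to compare with; where their UMIs of these chains come from was not tested. Median depth differed widely, from 3662 UMIs in fibroblasts to 16356 in Leydig cells, with 6029 in macrophages.

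Each class carried all the markers of its own gate, with sums from 7170 CPM for the 10 Sertoli markers to 24893 CPM for the 8 Leydig markers. Markers of other types were present too, and their part in the chain levels was not tested. Leydig markers, the most abundant set, summed to 1842 to 4004 CPM in the other 5 classes and 3840 CPM in macrophages. Pericyte barcodes held 5215 CPM of the 8 myoid markers and 1996 CPM of fibroblast markers, and myoid barcodes held 3079 CPM of fibroblast markers. In endothelial barcodes the 6 germ cell markers summed to 314 CPM, led by Sycp3 with 145 CPM, and Wt1, a Sertoli marker, stood at 343 CPM. In Sertoli barcodes the germ cell set summed to 374 CPM, led by Uchl1 with 342 CPM. The fibroblast class had UMIs of 4 of the 5 Schwann cell markers, 189 CPM in sum with 182 CPM of S100b, while Sox10, which defines these cells, was at 0 in all 6 classes and in macrophages. Tsc22d3, the targeted gene, was read at 6.05 CPM in the testis library and had UMIs in every class, which checks nothing, because a 3′ tag may lie outside the deleted part.

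Several chains lie side by side in the genome, and 2 such sets, chosen after their values were seen, are shown here: 1 with the same highest class and 1 with different ones. On chromosome 1 of GRCm38, Col4a4 (82448423 to 82586849, minus strand) and Col4a3 (82586921 to 82722059, plus strand) start head to head with 71 bases between the gene models, and both were highest in myoid cells. On chromosome 9 Col6a4, Col6a5 and Col6a6 lie in tandem on the minus strand, 28.8 and 27.9 kb apart. Only Col6a4 of these 3 reached 20 CPM, in myoid cells, while the other 2 had their higher levels in fibroblasts or pericytes. The stretches before each start come from the RefSeq promoter table, with letters of GRCm38.p6 read on the strand of the named gene. Capitals mark matches, on either strand, to the GC box (GGGCGG), the CCAAT box (CCAAT), the TATA box (TATAAA) or the CArG box, the site of serum response factor, searched by its usual consensus.
Col4a4 to Col4a3, chr1:82586850-82586920: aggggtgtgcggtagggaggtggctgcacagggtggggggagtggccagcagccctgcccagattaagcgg
Col6a4, chr9:106096784-106096941: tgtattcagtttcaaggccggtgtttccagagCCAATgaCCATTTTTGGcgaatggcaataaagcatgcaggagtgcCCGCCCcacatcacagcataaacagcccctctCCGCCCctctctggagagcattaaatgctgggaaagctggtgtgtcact
Col6a5, chr9:105960644-105960893: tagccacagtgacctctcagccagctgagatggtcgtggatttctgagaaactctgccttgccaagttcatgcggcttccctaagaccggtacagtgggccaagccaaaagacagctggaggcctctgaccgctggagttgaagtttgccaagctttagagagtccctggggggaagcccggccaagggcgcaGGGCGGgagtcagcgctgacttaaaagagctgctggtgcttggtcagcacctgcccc
Col6a6, chr9:105828161-105828335: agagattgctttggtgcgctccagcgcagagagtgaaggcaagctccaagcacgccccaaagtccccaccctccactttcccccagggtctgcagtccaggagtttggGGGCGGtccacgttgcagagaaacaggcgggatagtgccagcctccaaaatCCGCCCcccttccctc

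The 71 bases between Col4a4 and Col4a3 held none of the 4 motifs. Over 71 bases, 20.7% of promoters held a GC box, 13.3% a CCAAT box, 4.41% a TATA box and 0.405% a CArG box. The Col6a4 stretch held 2 GC boxes, 1 CCAAT box and 1 CArG box. A CArG match occurred in 0.965% of the 32851 promoters of the table over the same 158 bases. Within 250 bases before the start, 2 of the 22 chains listed in the table and above 20 CPM held one, Col6a4 and Lama2, against 1.47% of all promoters. Of the same 22 chains, 13 held a GC box (32.7% of promoters), 10 a CCAAT box (33.8%) and 2 a TATA box (12.4%). The Col6a5 stretch held 1 GC box and the Col6a6 stretch 2, and a GC box occurred in 32.7% of promoters over 250 bases and 30.0% over 175 bases. A match describes these letters and is neither a shown site nor a cause.

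Of the 55 chains, 29 reached 20 CPM in at least 1 class. Their highest class was fibroblast for 6, myoid for 10, pericyte for 9, endothelial for 2 and Sertoli or Leydig for 1 each. The 55 chains together took 0.757% of pericyte, 0.635% of myoid, 0.485% of fibroblast and 0.253% of endothelial UMIs, against 0.0636% in Sertoli, 0.0448% in Leydig and 0.0516% in macrophage barcodes. For 22 of the 29 the interval of the ratio of the highest to the next class lay above 1. With the barcodes of each class split by depth into 3 sets of equal size (shallow, middle and deep), the highest class was the same in all 3 for 24 of the 29. None of these counts was made over all genes, and the highest class was picked from the same UMIs. They are therefore a description and do not set the chains apart from other genes.

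**Figure D1:**
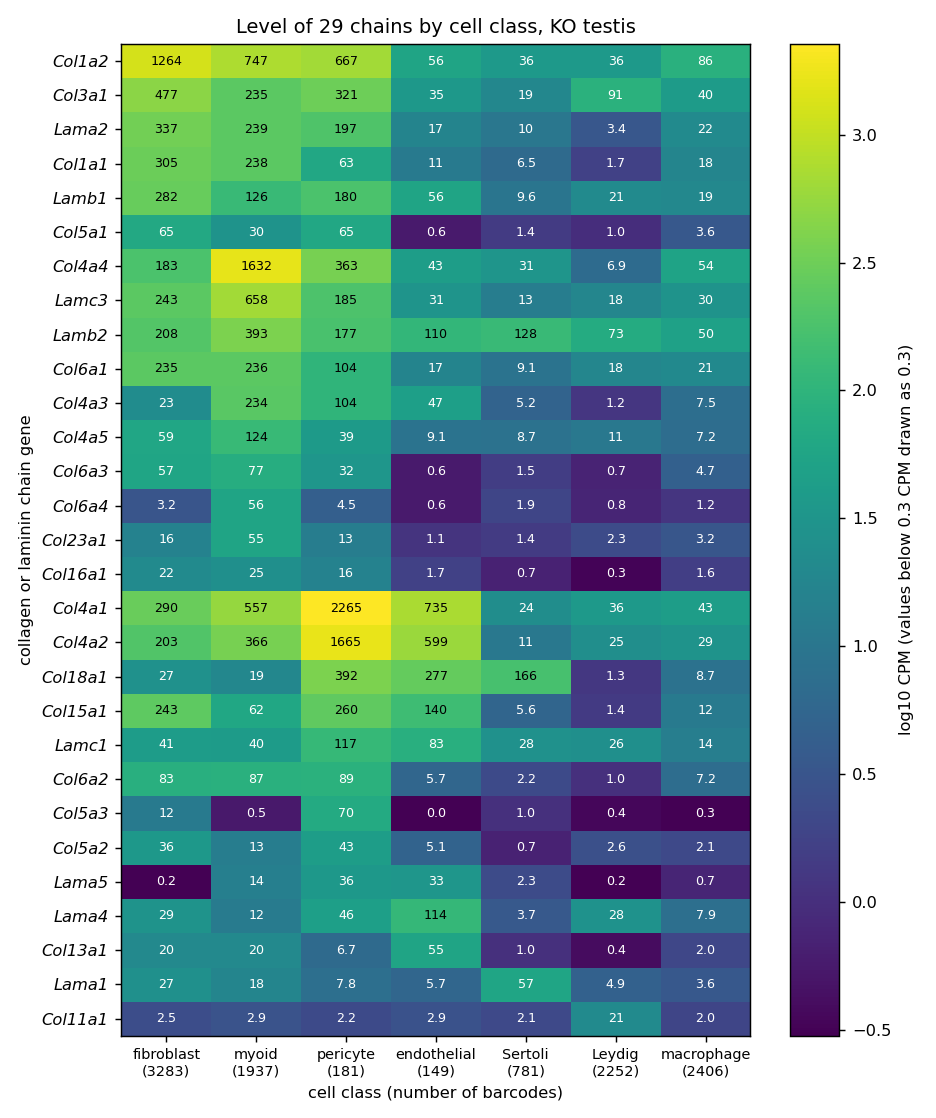
Colour and printed number give the CPM of pooled UMIs (colour on a log10 scale) for the 29 chains at or above 20 CPM, in rows, in the 6 classes and macrophages, in columns with their barcode numbers. The highest levels lie in the fibroblast, myoid, pericyte and endothelial columns, while Lama1 is highest in Sertoli and Col11a1 in Leydig barcodes.

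Few chains stood far above all other classes in 1 class, about as often as genes in general. A gene was counted as class-high where it had at least 20 CPM in a class and at least 4 times its level in each of the other 5, with a class at 0 set to its floor of 3 UMIs. This held for 4 of the 29 chains, or 13.8%, a share near the 11% of the 9294 genes that reached 20 CPM. Col4a4 and Col6a4 were class-high in myoid cells, where 0.979% of genes were. Col5a3 was class-high in pericytes, where 1.31% of genes were, and Col11a1 in Leydig cells, where 0.958% were. No chain was class-high in fibroblasts, endothelial or Sertoli cells, against 0.43%, 2.94% and 4.39% of genes. With a marker share of at least 10 times the background, the lead of Col6a4 fell to 3.80 times and ended its call. The Leydig call of Col11a1 ended there too and under 4 other alternatives: at most 10% mitochondrial UMIs, barcodes of several gates left out, the macrophage level subtracted, or a minimum of 50 CPM. The subtraction and the minimum of 50 CPM ended it through its level, 21.2 CPM and so close to the limit of 20 CPM, and not through its lead. With 2 times in place of 4, 13 of the 29 chains were class-high, against 27.5% of genes. These were 6 in myoid cells (2.25% of genes), 3 in pericytes (3% of genes), 2 in endothelial cells (5.38% of genes), 1 in Sertoli cells (12.4% of genes), 1 in Leydig cells (3.17% of genes) and 0 in fibroblasts (1.28% of genes).

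Chains stood above the macrophage level most often in fibroblasts, myoid cells and pericytes. A chain was counted as above macrophages where its level was at least 2 times theirs and the interval of the ratio lay above 1. All chains with at least 20 CPM were above macrophages in fibroblasts (24 of 24, with 18.2% of genes), in myoid cells (22 of 22, with 23% of genes) and in pericytes (23 of 23, with 23.2% of genes). In endothelial cells 11 of 15 were (19.6% of genes), in Sertoli cells 3 of 7 (36.6% of genes) and in Leydig cells 3 of 9 (21.1% of genes). The limit of 20 CPM picks chains that are high in the class, so these counts are a description. The deep set of macrophages held more of these chains, with 83.0 CPM of Col4a4 against 18.2 and 19.7 CPM in the shallow and middle sets. Without the deep set, a comparison added after the data were seen, the counts were 8 of 9 in Leydig cells (29.5% of genes), 4 of 7 in Sertoli cells (43.7% of genes) and 14 of 15 in endothelial cells (26.3% of genes). They stayed at 24 of 24 in fibroblasts (24.8% of genes), 22 of 22 in myoid cells (30.2% of genes) and 23 of 23 in pericytes (32.3% of genes).

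Among the collagen IV chains, Col4a4 set myoid cells apart from the vessel classes. Col4a1 and Col4a2 pair in nearly all basement membranes, whereas Col4a3, Col4a4 and Col4a5 form another trimer found in fewer. Col4a4 stood at 1632 CPM (95% interval 1606 to 1659) in myoid cells, 363 in pericytes, 183 in fibroblasts, 43.4 in endothelial, 31.4 in Sertoli and 6.87 in Leydig cells. Macrophages held 53.7 CPM, and 19.1 CPM without their deep set, so the endothelial and Sertoli levels lay below the first value and above the second, and the Leydig level below both. The myoid level was 4.50 times the pericyte level (4.03 to 5.04). With each cell thinned to 1000 UMIs, 72.6% of myoid cells had a Col4a4 UMI (70.5 to 74.6), against 23.5% of pericytes, 15.5% of fibroblasts and 2.58% of macrophages.

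Col4a3, the head-to-head neighbour, stood at 234 CPM in myoid cells, 104 in pericytes, 46.8 in endothelial cells, 23.4 in fibroblasts, 5.19 in Sertoli and 1.21 in Leydig cells. Its myoid level was 2.26 times that of pericytes (1.84 to 2.81). Col4a4 had 6.98 UMIs per Col4a3 UMI in myoid cells (6.67 to 7.30), 7.80 in fibroblasts (6.91 to 8.83) and 7.14 in macrophages (5.94 to 8.64). This ratio was lower in pericytes, at 3.51 (2.78 to 4.46), and in endothelial cells, at 0.927 (0.669 to 1.28), so the 2 neighbours did not keep 1 ratio across classes. In thinned myoid cells, Col4a3 was seen in 23.7% of the 1404 with Col4a4 (21.5 to 26.0) and in 11.1% of the 530 without it (8.58 to 14.1). Col4a5, the partner chain on the X chromosome, stood at 124 CPM in myoid cells, 59.2 in fibroblasts, 39.0 in pericytes and between 8.75 and 10.7 CPM in the other classes. Its neighbour Col4a6 stayed at or under 7.60 CPM.

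Col4a1 and Col4a2 were highest in the vessel classes, pericytes and endothelial cells. Col4a1 stood at 2265 CPM in pericytes (2168 to 2366), 735 in endothelial cells, 557 in myoid cells, 290 in fibroblasts, 35.8 in Leydig and 23.8 in Sertoli cells. Col4a2 stood at 1665 CPM in pericytes (1582 to 1752), 599 in endothelial cells, 366 in myoid cells, 203 in fibroblasts, 24.6 in Leydig and 10.6 in Sertoli cells. The pericyte levels were 3.08 times (2.87 to 3.31) and 2.78 times (2.57 to 3.01) the endothelial ones. The order of the first 4 classes was the same for both chains, and their ratio moved little, from 1.23 in endothelial cells to 1.52 in myoid cells, with 2.25 (1.78 to 2.86) in Sertoli cells. The gene models of Col4a1 and Col4a2 overlap by 22 bases at their starts. The gene models Gm15418, C430014B12Rik and Gm48084 overlap the 3′ ends of Col4a1, Col4a3 and Lama2 on the other strand and are not among the 26124 genes. If counting ignored strand, reads from such a pair cannot be told apart. In Sertoli and Leydig cells both Col4a1 and Col4a2 were under the macrophage levels of 42.8 and 29.1 CPM. Without the deep set macrophages held 13.6 and 9.30 CPM, and the Leydig levels were then 2.64 times theirs for both chains (2.17 to 3.24 and 2.08 to 3.39).

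**Figure D2:**
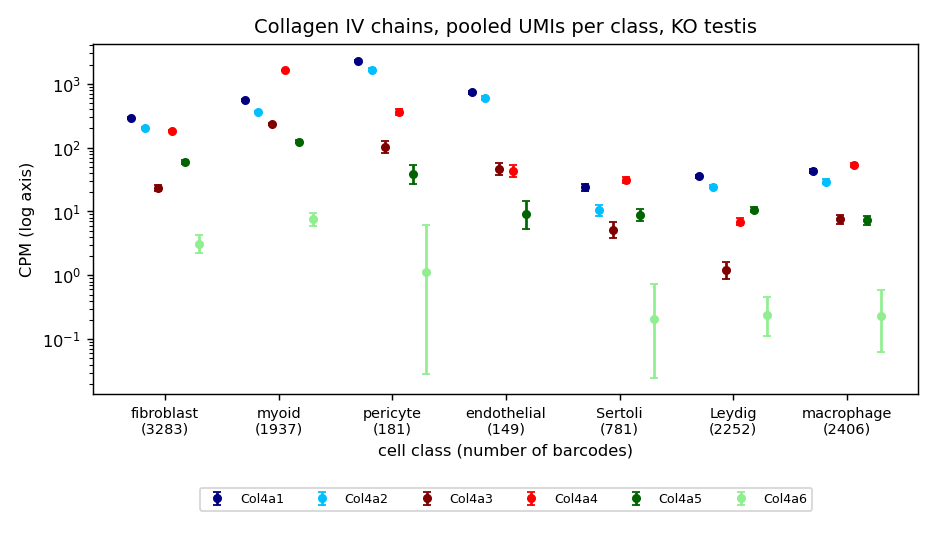
CPM of pooled UMIs (log axis) of the 6 collagen IV chains in each class and in macrophages, with barcode numbers; bars are exact Poisson 95% intervals and chains with 0 UMIs are not drawn. Of the 6 classes, Col4a4 is highest in myoid barcodes at 1632 CPM, and Col4a1 in pericyte barcodes at 2265 CPM.

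As shares of the UMIs of the 6 collagen IV chains, Col4a4 made up 55.9% in myoid cells, 24% in fibroblasts, 8.18% in pericytes and 3.03% in endothelial cells. Col4a1 made up 19.1%, 38.1%, 51.1% and 51.3% in the same classes. Both are shares of 1 sum, so a larger share of 1 chain leaves less for the other. In CPM the 2 chains did not run in opposite order, because Col4a1 too was higher in myoid cells (557) than in fibroblasts (290). In Sertoli cells Col4a4 made up 39.3%, and there its ratio to Col4a1, 1.32 (1.11 to 1.57), was close to the 1.25 (1.14 to 1.38) of macrophages.

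The main fibrillar chains were highest in fibroblasts and shared with myoid cells and pericytes. Col1a2, an alpha chain of collagen I, stood at 1264 CPM in fibroblasts (1245 to 1284), 747 in myoid cells, 667 in pericytes, 55.9 in endothelial cells and 36.2 in both Sertoli and Leydig cells. Its partner Col1a1 stood at 305 CPM in fibroblasts, 238 in myoid cells, 63.4 in pericytes, 11.4 in endothelial, 6.51 in Sertoli and 1.70 in Leydig cells. Col1a1 had 0.319 UMIs per Col1a2 UMI in myoid cells (0.304 to 0.335), 0.241 in fibroblasts (0.233 to 0.250) and 0.0952 in pericytes (0.0712 to 0.125). The pericyte ratio of the 2 chains was thus the lowest of these 3 classes, with no overlap of the intervals.

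Col3a1, the chain of collagen III, stood at 477 CPM in fibroblasts, 321 in pericytes, 235 in myoid cells, 90.5 in Leydig, 34.8 in endothelial and 18.7 in Sertoli cells. Leydig cells differed from the others in its ratio to Col1a2, with 2.50 UMIs per Col1a2 UMI (2.34 to 2.66) against 0.315 to 0.622 in the other 5 classes and 0.462 (0.421 to 0.505) in macrophages. The Leydig level of Col3a1 was also above that of macrophages, 39.8 CPM, while that of Col1a2 was below their 86.2 CPM. Without their deep set macrophages held 33.5 CPM of Col1a2, and the Leydig level was 1.08 times that (0.946 to 1.24). In thinned cells Col3a1 was seen in 8.69% of Leydig cells and 2.0% of macrophages, and Col1a2 in 3.82% and 4.28%.

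Collagens V and XI are minor fibrillar chains built into the same cables. Col5a1 stood at 65.2 CPM in fibroblasts, 64.6 in pericytes and 29.7 in myoid cells, and Col5a2 at 43.4 in pericytes, 35.5 in fibroblasts and 13.4 in myoid cells. The 2 highest classes could not be separated for either chain, with ratios of 1.01 (0.774 to 1.34) and 1.22 (0.858 to 1.70). Col5a3 had another pattern, with 70.1 CPM in pericytes (53.9 to 89.7) and 11.5 in fibroblasts. It stood at 1.02 CPM in Sertoli, 0.543 in myoid and 0.350 in Leydig cells. In endothelial cells it had 0 UMIs, with an exact Poisson upper bound of 2.11 CPM. Its pericyte level was 6.08 times the fibroblast level (4.46 to 8.23). The pericyte value rests on 63 UMIs, and 5.03% of thinned pericytes had one (2.32 to 9.33), against 0.0416% of macrophages.

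Col11a1 was the one chain reaching 20 CPM in a class that was highest in Leydig cells, at 21.2 CPM (19.8 to 22.7). The other classes held 2.14 to 2.93 CPM and macrophages 1.95 CPM. The Leydig level was 7.24 times that of myoid cells, the next class (4.93 to 11.1). In thinned cells 1.89% of Leydig cells had a UMI (1.36 to 2.55) against 0.125% of macrophages. The shallow, middle and deep Leydig sets stood at 16.1, 22.5 and 22.4 CPM. Of its 1694 UMIs in the library 874 were in the 6 classes, so many lay in barcodes of no class. The lead depended on the gate, falling to 1.83 times with a marker share of at least 10 times the background and 3.32 times without barcodes that passed several gates.

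The collagen VI chains Col6a1, Col6a2 and Col6a3 were shared by fibroblasts, myoid cells and pericytes. Col6a1 stood at 236 CPM in myoid cells, 235 in fibroblasts, 104 in pericytes, 18.0 in Leydig, 17.1 in endothelial and 9.05 in Sertoli cells. Col6a2 stood at 89.0 CPM in pericytes, 86.5 in myoid cells and 82.9 in fibroblasts, and at 1.02 to 5.71 CPM elsewhere. Col6a3 stood at 77.2 CPM in myoid cells, 57.2 in fibroblasts and 32.3 in pericytes, and at 0.571 to 1.53 CPM elsewhere. For Col6a1 and Col6a2 the 2 highest classes could not be separated, with ratios of 1.01 (0.952 to 1.06) and 1.03 (0.807 to 1.30).

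Col6a4, an alternative chain that can take the place of Col6a3, stood at 56.1 CPM in myoid cells (51.4 to 61.2), 4.45 in pericytes, 3.21 in fibroblasts, 1.93 in Sertoli, 0.755 in Leydig and 0.571 in endothelial cells. Macrophages held 1.21 CPM. The myoid level was 12.6 times the pericyte level (4.89 to 46.4), which rests on 4 UMIs in pericytes. In thinned cells 6.1% of myoid cells had a Col6a4 UMI (5.08 to 7.26) against 0.0416% of macrophages. Its tandem neighbours did not share this pattern: Col6a6 stood at 16.2 CPM in fibroblasts, 8.65 in Sertoli and 0.434 in myoid cells, and Col6a5 at 16.7 in pericytes, 13.5 in fibroblasts and 0.760 in myoid cells.

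Leydig cells had an uneven collagen VI ratio. Col6a1 had 17.6 UMIs per Col6a2 UMI there (12.7 to 25), against 1.16 to 4.05 in the other 5 classes and 2.85 in macrophages (2.32 to 3.52). The level of Col6a1 in Leydig cells, 18.0 CPM, lay between the 20.6 CPM of all macrophages and their 9.55 CPM without the deep set.

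The multiplexins, basement membrane collagens with sugar side chains, were highest in pericytes. Col18a1, whose end fragment is endostatin, stood at 392 CPM in pericytes (352 to 435), 277 in endothelial cells (253 to 303), 166 in Sertoli cells (158 to 174), 27.0 in fibroblasts, 18.9 in myoid cells and 1.29 in Leydig cells. Macrophages held 8.74 CPM, and Sertoli cells were thus at 19.0 times their level (16.1 to 22.5). It was seen in 12.8% of thinned Sertoli cells (10.5 to 15.4) and 0.707% of macrophages (0.412 to 1.13). The 3′ end of Col18a1 overlaps Slc19a1, a folate carrier gene on the other strand, whose own levels were 1.71 CPM in endothelial and 22.7 CPM in myoid cells, and whether reads were assigned by strand is not given in the sources used here. Col15a1 stood at 260 CPM in pericytes, 243 in fibroblasts, 140 in endothelial, 61.9 in myoid, 5.60 in Sertoli and 1.37 in Leydig cells. Its 2 highest classes could not be separated, with a ratio of 1.07 (0.934 to 1.22).

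Of the transmembrane collagens, Col13a1 stood at 54.8 CPM in endothelial cells (44.4 to 66.9), 20.4 in myoid cells, 20.2 in fibroblasts, 6.68 in pericytes, 1.02 in Sertoli and 0.404 in Leydig cells. Col23a1 stood at 54.8 CPM in myoid cells (50.1 to 59.8), 15.5 in fibroblasts, 13.4 in pericytes and 1.14 to 2.32 CPM elsewhere. They thus had different highest classes, by 2.69 times (2.08 to 3.45) and 3.53 times (2.99 to 4.18) the next. Col16a1, which coats fibrils, stood at 25.3 CPM in myoid cells, 21.6 in fibroblasts and 15.6 in pericytes, with the first 2 not separable.

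**Figure D3:**
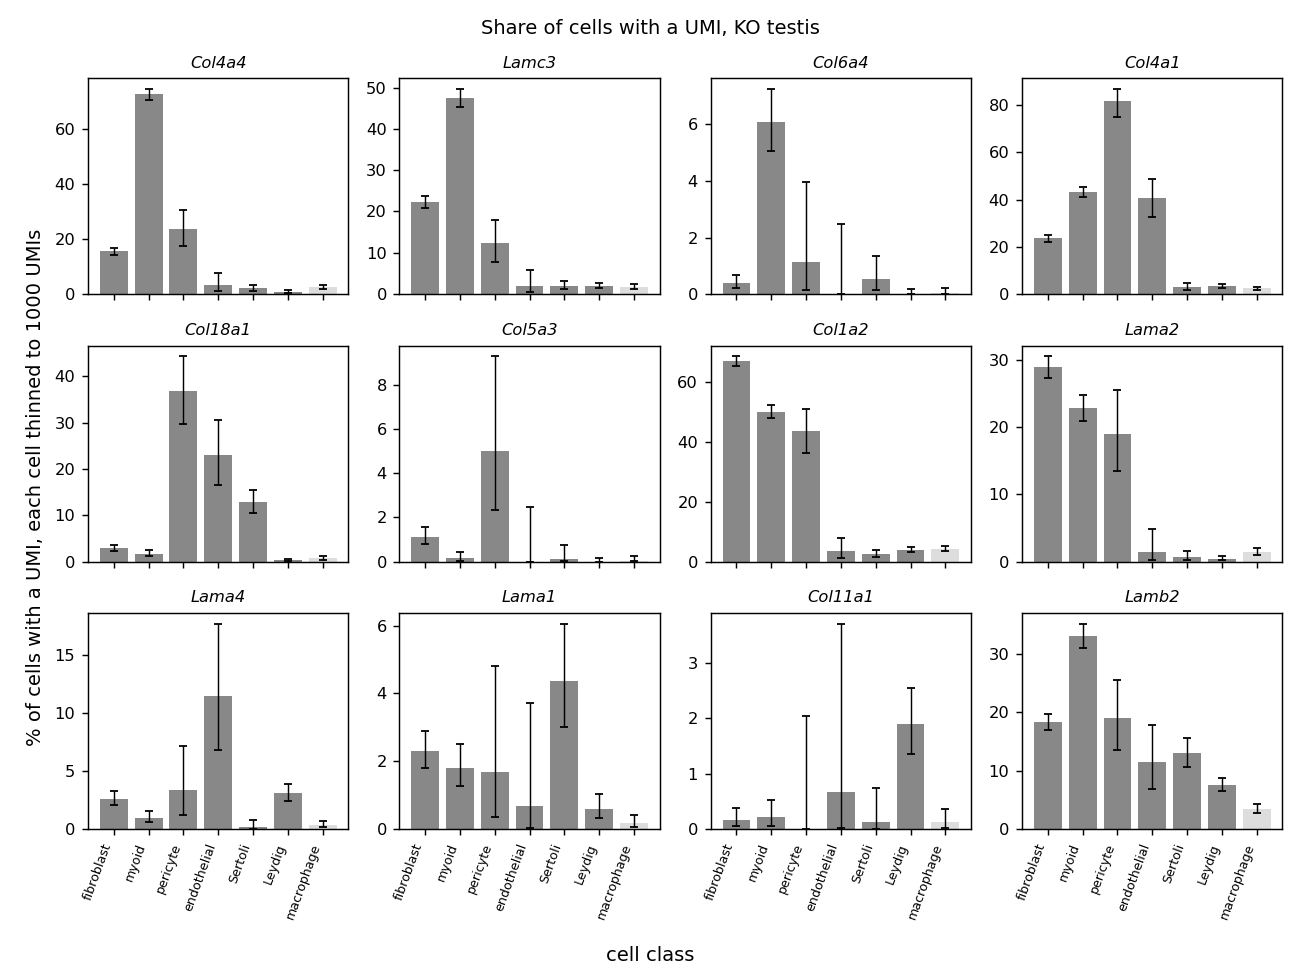
Share of cells with at least 1 UMI of the named chain after each cell was thinned to 1000 UMIs, for 12 chains in the 6 classes (dark bars) and macrophages (light bar); axes start at 0 and differ between panels, and error bars are exact 95% intervals. Col4a4 is seen in 72.6% of myoid cells and Col4a1 in 81.6% of pericytes, while the Sertoli share of Lama1 is 4.35% and the Leydig share of Col11a1 1.89%.

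Among the laminin alpha chains, Lama2, Lama4 and Lama1 each had a different highest class. Lama2, the alpha chain of muscle and other mesenchymal cells, stood at 337 CPM in fibroblasts (327 to 347), 239 in myoid cells, 197 in pericytes, 17.1 in endothelial, 10.3 in Sertoli and 3.40 in Leydig cells. Lama4, the alpha chain common in vessel walls, stood at 114 CPM in endothelial cells (98.4 to 131), 45.6 in pericytes, 29.5 in fibroblasts, 28.4 in Leydig, 12.3 in myoid and 3.66 in Sertoli cells. Lama1, an alpha chain with a narrow tissue range, stood at 57.5 CPM in Sertoli cells (52.8 to 62.4), 26.7 in fibroblasts, 17.7 in myoid cells, 7.79 in pericytes, 5.71 in endothelial and 4.85 in Leydig cells. The highest class led the next by 1.41 times (1.34 to 1.49), 2.49 times (1.77 to 3.57) and 2.16 times (1.88 to 2.47). Lama5 stood at 35.6 CPM in pericytes, 32.5 in endothelial and 14.2 in myoid cells and 0.157 in fibroblasts, and its 2 highest classes could not be separated. In barcodes of the pericyte gate alone it stood at 22.4 CPM, on 7 UMIs, under the endothelial level.

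As shares of alpha chain UMIs, Lama2 took 85.4% in fibroblasts, 83.8% in myoid cells and 68.6% in pericytes, and Lama4 took 65.7% in endothelial and 74.6% in Leydig cells. In Sertoli cells Lama1 took 67.7% (64.5 to 70.9) and Lama3 13.1%. The Leydig level of Lama4 was above the 7.88 CPM of macrophages, and 3.08% of thinned Leydig cells had a UMI against 0.374% of macrophages. In Sertoli cells 4.35% had a Lama1 UMI (3.02 to 6.06) against 0.166% of macrophages. The shallow, middle and deep Sertoli sets held 24.3, 56.7 and 64.3 CPM of Lama1, and the shallow set thus did not exceed the 26.7 CPM of all fibroblasts.

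Of the beta chains, Lamb1 is the broader and Lamb2 is the one found in mature muscle, kidney and nerve basement membranes. Lamb1 stood at 282 CPM in fibroblasts, 180 in pericytes, 126 in myoid, 55.9 in endothelial, 21.4 in Leydig and 9.56 in Sertoli cells. Lamb2 stood at 393 CPM in myoid cells (380 to 406), 208 in fibroblasts, 177 in pericytes, 128 in Sertoli, 110 in endothelial and 72.8 in Leydig cells. Sertoli cells had the highest ratio of the 2, with 13.3 Lamb2 UMIs per Lamb1 UMI (10.8 to 16.6), against 0.739 in fibroblasts (0.703 to 0.778) and 2.58 in macrophages. Lamb2 was seen in 12.9% of thinned Sertoli cells and 3.49% of macrophages.

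Of the gamma chains, Lamc1 is part of most laminins, and Lamc3 has a narrower range. Lamc3 stood at 658 CPM in myoid cells (642 to 675), 243 in fibroblasts, 185 in pericytes, 30.8 in endothelial, 18.2 in Leydig and 13.4 in Sertoli cells, and at 29.9 CPM in macrophages. The myoid level was 2.71 times the fibroblast level (2.60 to 2.83). Lamc1 stood at 117 CPM in pericytes, 83.3 in endothelial cells, 41.3 in fibroblasts, 40.4 in myoid, 27.7 in Sertoli and 25.9 in Leydig cells, a flatter pattern. Lamc3 thus took 94.2% of gamma chain UMIs in myoid cells and 85.4% in fibroblasts, while Lamc1 took 72.6% in endothelial cells. In UMIs, the ratio of Lamc3 to Lamc1 was 16.3 in myoid (14.7 to 18.1) and 0.370 in endothelial cells (0.266 to 0.509). Lamc3 was seen in 47.5% of thinned myoid cells and 1.75% of macrophages, and in 52.6% of myoid cells with a Col4a4 UMI against 34.0% of those without.

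**Figure D4:**
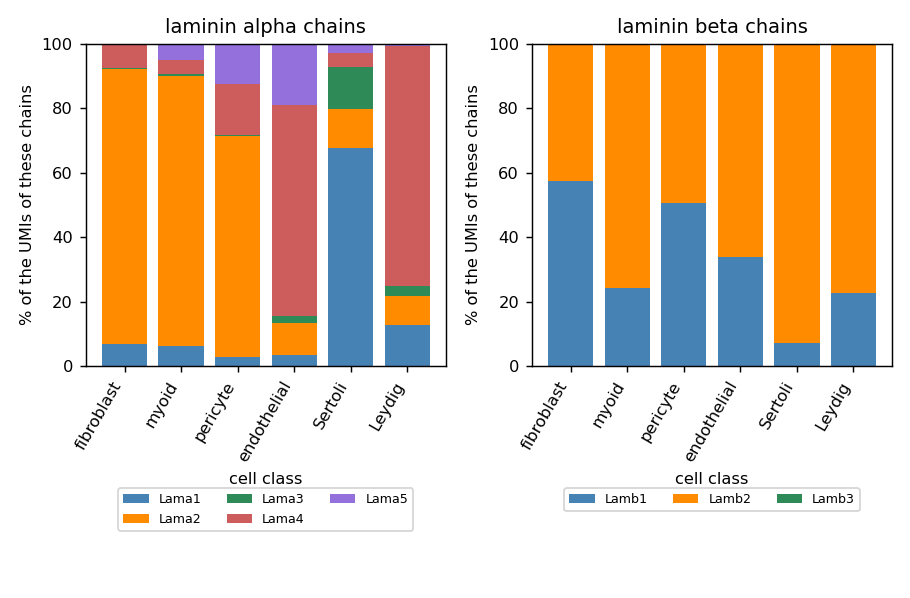
Stacked bars give each chain's percent of the UMIs of the laminin alpha and beta chains in the 6 classes. Lama2 has its largest shares in fibroblast, myoid and pericyte barcodes, Lama4 in endothelial and Leydig and Lama1 in Sertoli barcodes, where Lamb2 stands at 13.3 UMIs per Lamb1 UMI.

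The myoid and pericyte gates overlapped, and the chains differed along that overlap. Barcodes passing the myoid gate alone numbered 1319, those passing both and no further gate 184 and those passing the pericyte gate alone 68. Doublets were not called, and their part in the overlap was not tested. Col4a4 stood at 1607, 487 and 214 CPM in these 3 sets, Lamc3 at 638, 227 and 115 CPM, and Col4a3 at 234, 126 and 54.3 CPM. Col4a1 ran the other way, at 557, 1493 and 1961 CPM, as did Col18a1 at 16.9, 311 and 374 CPM and Col5a3 at 0.457, 36.1 and 60.7 CPM. For these 6 chains, picked after their values were seen, the barcodes of both gates lay between the other 2 sets. Lama5 did not follow this, with 14.0, 82.1 and 22.4 CPM and its highest level in barcodes of both gates, nor did Col6a1, with 231, 59.1 and 125 CPM. The levels of Col3a1, Col6a2, Col6a3, Col11a1, Lama2, Lamb1 and Lamc1 in barcodes of both gates also lay outside the other 2 sets. The pericyte gate alone rests on few barcodes, and Col6a4 had 0 UMIs there after 57.2 and 17.5 CPM. The whole pericyte class, with its barcodes that also passed another gate, held 363 CPM of Col4a4, 185 of Lamc3, 2265 of Col4a1 and 35.6 of Lama5.

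**Figure D5:**
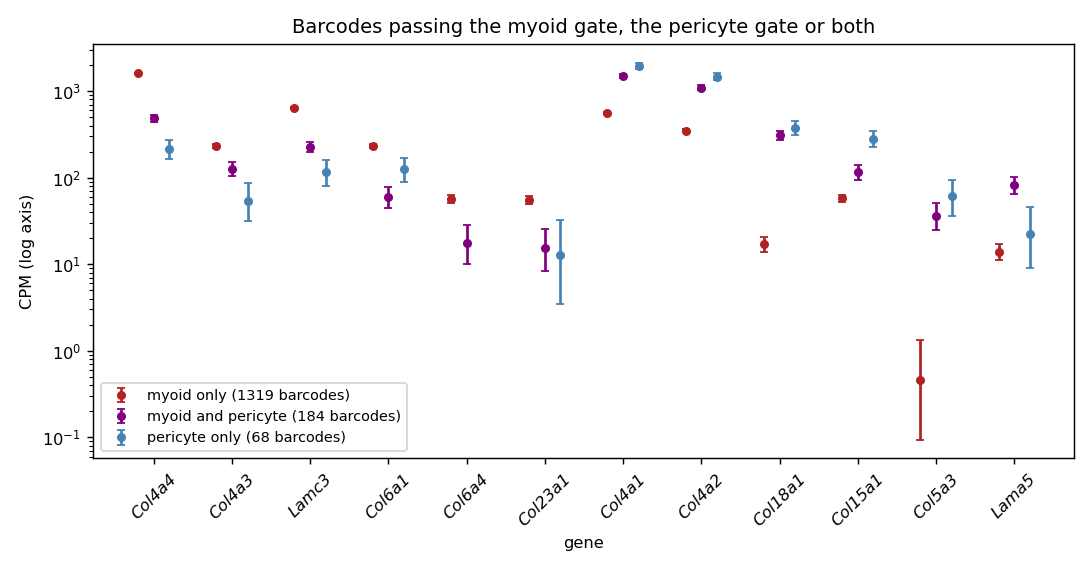
CPM (log axis) of 12 chains in barcodes that passed the myoid gate only (1319), both and no further gate (184) or the pericyte gate only (68); bars are exact Poisson 95% intervals and points at 0 UMIs are not drawn. Col4a4 falls from 1607 to 214 CPM across the sets and Col4a1 climbs from 557 to 1961 CPM.

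Barcodes that passed both the fibroblast and the myoid gate and no further gate numbered 666. They resembled the myoid-only set in Col4a4, at 1661 against 1607 CPM with 179 CPM in the 3260 barcodes of the fibroblast gate alone. Col6a4 stood at 53.8, 57.2 and 3.11 CPM in the same order. The fibrillar chain Col1a2 lay between the 2 sets, with 933 CPM against 715 and 1267 CPM.

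The other 26 chains stayed under 20 CPM in every class, the highest being Col6a5 at 16.7 CPM. Several had their highest level outside the fibroblast and myoid classes. Col7a1, of anchoring fibrils, stood at 13.7 CPM in endothelial cells and at most 2.23 CPM elsewhere, and Col27a1 at 13.4 CPM in pericytes and 7.37 in fibroblasts. Sertoli cells held 11.1 CPM of Lama3, 9.46 of Col17a1 and 4.98 of Col9a3. The beta chain Lamb3 had 0 UMIs in Sertoli cells, with an exact Poisson upper bound of 0.375 CPM. Myoid cells held 7.60 CPM of Col8a2, 5.54 of Col8a1 and 3.58 of Col19a1. Leydig cells held 5.17 CPM of Col22a1, and fibroblasts 2.74 CPM of Col20a1. Col14a1 reached 3.28 CPM in macrophages, above all 6 classes, which held at most 0.977 CPM. Col11a2, Col12a1, Col24a1, Col25a1, Col26a1, Col28a1, Col9a1 and Lamb3 each stayed at or under 1.14 CPM, and Col10a1, Col9a2 and Col2a1 had 3 or fewer UMIs in the 6 classes, with 0 in the whole library for Col2a1, the chain of cartilage.

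Genes that fold, secrete, bind and cut the chains were listed as well. Of all 26124 genes 9294 reached 20 CPM in a class, and 11% of these were class-high. The counts for these short lists are a description beside those shares. Of 20 folding and crosslinking genes 16 reached 20 CPM, and 1 was class-high, Loxl2, a crosslinking oxidase with 146 CPM in pericytes and at most 34.4 CPM elsewhere. The 4 with most UMIs over the 6 classes, Ppib, P4hb, Crtap and Plod2, which fold or hydroxylate new chains, were present in all classes, with Ppib at 411 to 650 CPM. Serpinh1, the collagen chaperone, named after its values were seen, stood at 271 CPM in myoid cells, 232 in fibroblasts, 183 in pericytes and 178 in endothelial cells, but at 6.71 in Sertoli and 3.23 in Leydig cells, under the 20.9 CPM of macrophages. Plod2 was highest in Leydig cells, at 168 CPM. Of 10 secretion and trimming genes 6 reached 20 CPM and 0 were class-high. Pcolce, an enhancer of propeptide removal, was highest in Leydig cells at 1126 CPM. Of the 6 classes Leydig cells had the lowest sum of the 55 chains, 448 CPM. Sparc, a collagen-binding protein, was highest in endothelial cells at 7132 CPM. Mia3 and Sec23a, of the transport carriers, ranged over 89.6 to 129 and 38.5 to 63.4 CPM.

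All 11 basement membrane partners reached 20 CPM and 3 were class-high. Smoc2 was class-high in myoid cells at 232 CPM, with 54.3 CPM in fibroblasts and 1.48 to 39.0 elsewhere, and so shared the highest class of Col4a4. Npnt and Fbln2 were class-high in endothelial cells at 55.4 and 42.8 CPM. Nid1, which links laminin and collagen IV, was highest in pericytes at 437 CPM, Hspg2, the proteoglycan perlecan, in endothelial cells at 399 CPM, and Smoc1 in myoid cells at 92.8 CPM. Of 14 receptors 8 reached 20 CPM and 1 was class-high, Ddr1, a collagen receptor kinase, in Sertoli cells at 116 CPM. The related Ddr2 stood at 112 to 114 CPM in fibroblasts, myoid cells and pericytes. Itga1, a collagen-binding integrin chain, stood at 486 CPM in pericytes and 341 in myoid cells, Itgb1, its partner, at 864 and 597 CPM, and Dag1, a laminin receptor, at 322 and 272 CPM. Of 12 turnover genes 9 reached 20 CPM and 1 was class-high, the protease Mmp15 in endothelial cells at 37.1 CPM. Timp3, an inhibitor that binds the matrix, stood at 2103 CPM in pericytes, 915 in endothelial and 827 in myoid cells. Mmp14, Timp1 and Timp2 ranged over 21.8 to 75.3, 61.2 to 104 and 410 to 1205 CPM in the 6 classes.

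In the cauda libraries the chains were rare. Of all UMIs, the 55 chains took 0.150% in the testis library, 0.00699% in that of the KO cauda and 0.0119% (0.0110 to 0.0129) in that of the chimera. The chimera value is over all 301167 barcodes of its table, which, unlike the KO tables, also holds barcodes under 500 UMIs. In sums over a library, fewer cells of a type and less RNA per cell cannot be told apart. Among chimera barcodes with at least 500 UMIs, the lowest depth kept in the other tables, 125 of 222 were also in the KO cauda table, and the testis table shared 14 with the KO cauda and 0 with the chimera. The chains took 0.00646% over these 222 barcodes and 0.0395% (0.0298 to 0.0515) over the 97 not shared, which hold 139106 of 2942099 UMIs. Without the shared barcodes the KO cauda stood at 0.00700%. The chimera value at this depth therefore rests largely on shared barcodes, and what they are was not tested.

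The chain with most UMIs in both cauda libraries was Lamc1. It stood at 19.1 CPM over all chimera barcodes, 21.1 CPM over those with at least 500 UMIs, 14.4 CPM for the KO cauda and 27.7 CPM for the testis. Col20a1 stood at 18.0 CPM (14.6 to 21.9) over all chimera barcodes, 4.08 CPM (2.11 to 7.12) over those with at least 500 UMIs, 0.884 CPM for the KO cauda and 1.71 CPM for the testis. Col4a4 stood at 162 CPM in the testis, 2.13 in the KO cauda and 0.556 over all chimera barcodes, with 0 UMIs over those with at least 500 UMIs. Lamc3 stood at 95 CPM in the testis. It had 0 UMIs in the KO cauda and over all chimera barcodes, with upper 95% bounds of 0.0881 and 0.684 CPM.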

How the data were processed

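The authors deposited raw UMI counts per gene and barcode, made with 3′ v3.1 chemistry per the labels. Cell Ranger 6, Seurat 4.2.1 and the build GRCm38.p6 are given in the submitters' processing notes. The headers of the deposited tables state Cell Ranger 4 for the chimera and 6.1.2 for both KO libraries. Whether counting used strand is not given in the sources used here. Members, marker sets and lists were chosen with earlier results of these data known. Barcodes needed 500 UMIs, 200 genes and at most 20% mitochondrial UMIs. Macrophage barcodes had at least 5 of 8 markers and 20 marker UMIs. A class needed 3 markers, 5 marker UMIs and 5 times the macrophage share of those markers; a barcode passing several gates (1052) went to a class leading by 2 times (787), or to none (265). No chain was a marker, and no doublet caller was run. UMIs were summed per class. Levels carry exact Poisson, ratios exact conditional binomial and shares exact (Clopper-Pearson) 95% intervals. Depth sets are equal splits of a class by UMIs per barcode. Thinning to 1000 UMIs (seed 11) left out 199 fibroblast, 3 myoid, 2 pericyte, 1 endothelial, 23 Sertoli, 78 Leydig and 0 macrophage barcodes. The levels of 1 chain under 20 CPM are not reported here. Every chain with at least 20 CPM in a class is named with its values, and of other lists the 4 genes with most UMIs; class-high list genes outside those 4 and the gate and codetection examples were chosen after their values were seen, as were 5 of the 13 chain ratios. Positions are those of GENCODE M21 on GRCm38, which held all 55 chains. The scripts (Python 3.11.15, numpy 2.4.6, scipy 1.17.1) were tested on simulated data.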

Additional observations from a re-analysis of the deposited data

How the results depend on the processing

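Of 812 recomputed values 0 reversed and 135 moved beyond their intervals or limits, 16 of them among the 137 counts. The highest class stayed the same for 26 to 29 of the 29 chains over the 9 alternatives of gate and scale, and 2 to 4 of the 4 class-high chains were kept. Leaving out barcodes that passed several gates added 1 class-high chain, as did subtracting the macrophage level. With a marker share of 10 times the background, 2 chains were class-high, 1 in myoid and 0 in Leydig cells, and 5 reached 20 CPM in Leydig cells. No chain was class-high in Leydig cells (0) with at most 10% mitochondrial UMIs, without barcodes passing several gates, after subtracting the macrophage level, or from 50 CPM. Col11a1, at 21.2 CPM, could not pass the limit of 50 CPM. At 2-fold, 13 chains were class-high (27.5% of genes): 6 in myoid, 3 in pericyte, 2 in endothelial, 1 in Sertoli and 1 in Leydig cells. After subtraction 3 chains each reached 20 CPM in Leydig and Sertoli cells. Without the deep set of macrophages, an alternative added after the data were seen, 8 of 9 chains were above macrophages in Leydig cells (29.5% of genes). Col4a4 led the next class by 4.18 to 7.51 times and Col6a4 by 3.80 to 18.1 times. Low counts limit the pericyte and endothelial classes, where 3 UMIs are 3.34 and 1.71 CPM. No paired analysis was possible because each group is 1 library.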
